A study of Mus musculus with 4 samples.

Results

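Histone genes were followed in invariant natural killer T (iNKT) cells of mice that carry a Vα14 T cell receptor α chain transgene under the CD4 promoter (CD4-Vα14Tg) and of wild-type (WT) mice. Genes were taken by symbol, as probe sets with a single platform symbol that begins with a histone prefix (Hist1h to Hist4h, H1f, H2ac, H2bc, H2af, H3c, H3f or H4c). Of 22180 named genes, 30 met this rule: 8 of linker histone H1, 7 of H2A (1 of them, H2af-ps2, a pseudogene), 8 of H2B and 7 of H4. No H3 gene had a probe set of its own, since every H3 probe set was listed for several genes. Whole-transcript Affymetrix arrays were hybridised with RNA of iNKT cells, 2 arrays for each genotype. The question put by the design is how transcription in iNKT cells differs when the transgene is present. Transgene expression follows the CD4 promoter, which is active from the double positive thymocyte stage and in CD4 T cells. The labels give no organ, sorting gate, age or sex, and do not say whether the 2 arrays of a genotype come from separate animals, so p-values measure the spread between these arrays.

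Core histones H2A, H2B, H3 and H4 form the octamer that DNA wraps around, and H1 binds the linker DNA between octamers. Most are encoded by clustered genes without introns that are transcribed when DNA is copied, and their mRNAs end in a stem-loop bound by SLBP rather than in a poly(A) tail. Replacement histones such as H2A.Z, H3.3 and H1.10 are made throughout the cell cycle, and others are made mainly in germ cells. Per the labels, total RNA from frozen tissue was labelled by Affymetrix's whole-transcript method; how it was primed is not stated there, and capture of RNAs without a tail was not tested. Clustered genes of one class are nearly identical in their coding parts, so signal from a close copy cannot be told apart from that of the named gene.

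No histone gene passed limma's test. Dim genes were left out of the test by a line drawn on each array, the 40th percentile of all probe sets with a name (log2 4.65 to 4.69), which a gene had to reach on 2 or more arrays. Of the 30 members, 14 did. Of these 14, 0 had a limma adjusted p under 0.05, against 1.95% of all 13602 genes tested (0.61% higher and 1.34% lower in CD4-Vα14Tg). The count was also 0 with limma's trend and robust options, and 1 (H2bc12) without CD4-Vα14Tg replicate 1. Of the 14, 4 had an unadjusted p under 0.05 (H2bc12, H2ac1, H2ac10 and H4c1), against 11.7% of all genes. The log2 difference, CD4-Vα14Tg minus WT, was positive in 12 of 14 members, against 44.0% of all genes, with a median of 0.19 beside -0.022 over all genes. The median depended on 1 array: it was 0.009 without CD4-Vα14Tg replicate 2 and 0.38 without CD4-Vα14Tg replicate 1. Both CD4-Vα14Tg arrays lay above both WT arrays for 5 members (15.7% of all genes) and below them for 1 member (23.4% of all genes), which makes 6 members without overlap beside 39.1% of all genes. With 2 arrays against 2, an exact permutation test cannot give a p below 0.33, so no single member was tested that way. In bulk RNA, fewer cells of a type and less RNA per cell cannot be told apart.

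**Figure D1:**
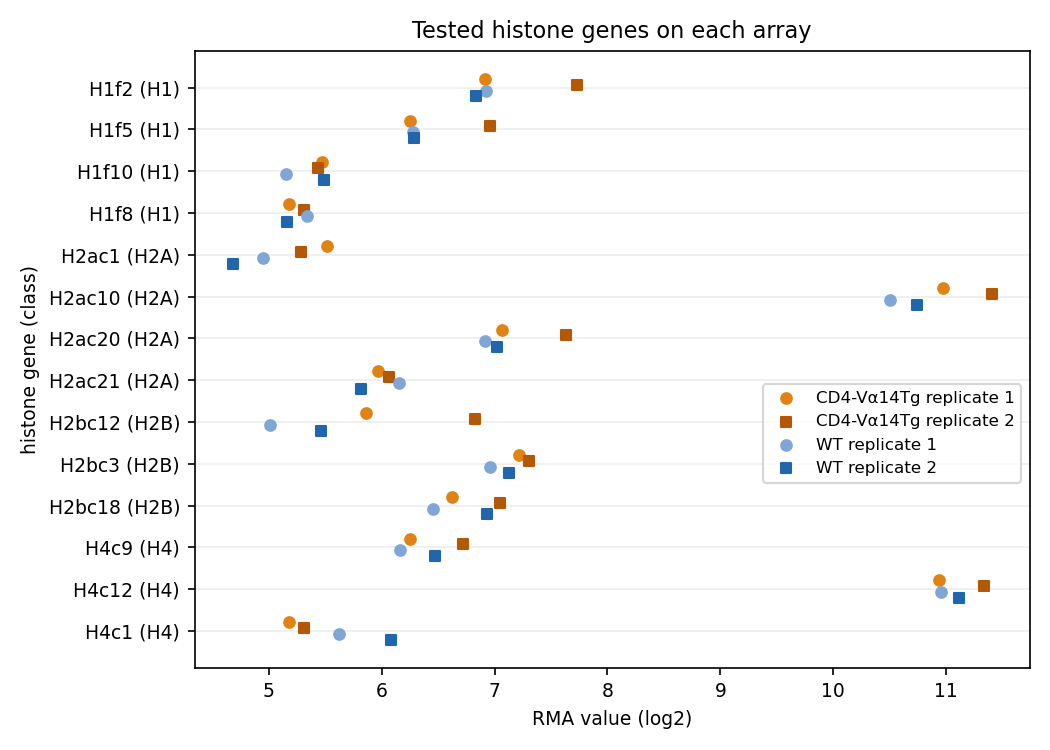
RMA values on the log2 scale (x axis) of the 14 tested histone genes (y axis, with class), 1 point for each of the 4 arrays. The CD4-Vα14Tg points lie to the right of both WT points for H2ac1, H2ac10, H2ac20, H2bc12 and H2bc3 and to the left for H4c1; values of different probe sets are not comparable with each other.

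The H2B genes had the largest single difference. H2bc12, a clustered H2B gene, read 5.86 and 6.82 on the CD4-Vα14Tg arrays and 5.01 and 5.46 on the WT arrays. Its groups did not overlap, but the CD4-Vα14Tg arrays lay 0.96 apart. The log2 difference was 1.10 ± 0.30 (SE), or 2.15-fold, and its 95% interval ran between 0.39 and 1.82 (limma adjusted p = 0.161). Leaving out CD4-Vα14Tg replicate 1 gave 1.58 and a limma adjusted p of 0.0209, a pass, and leaving out CD4-Vα14Tg replicate 2 gave 0.625. H2bc3 read 7.22 and 7.30 against 6.96 and 7.13, a difference of 0.21 (interval -0.08 to 0.51, limma adjusted p = 0.617). H2bc18 read 6.62 and 7.05 against 6.46 and 6.93, so its groups overlapped and the array numbered 2 was the higher in both genotypes (log2 difference 0.14, limma adjusted p = 0.916). All 3 tested H2B differences were positive. The other 5 H2B members were dim. Among them H2bc21 read 4.30 and 4.78 against 4.02 and 3.89, and the germ cell gene H2bc1 read 2.39 to 2.60 on the 4 arrays.

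The 4 tested H2A genes also had positive differences, with a median of 0.47. H2ac10, a clustered gene, read 10.97 and 11.40 on the CD4-Vα14Tg arrays against 10.50 and 10.74 on the WT arrays. Its groups did not overlap, with a log2 difference of 0.57 ± 0.17 (SE), or 1.48-fold (interval 0.16 to 0.98, limma adjusted p = 0.217). H2ac1 encodes TH2A, an H2A known from testis and oocytes. It read 5.52 and 5.28 against 4.95 and 4.68, near the lower line for testing, with a difference of 0.59 ± 0.15 (SE; interval 0.24 to 0.93, limma adjusted p = 0.127). Here the array numbered 1 was the higher in both genotypes, unlike most tested members. H2ac20 read 7.07 and 7.63 against 6.92 and 7.02 (difference 0.38, limma adjusted p = 0.527). Its groups did not overlap, though CD4-Vα14Tg replicate 1 lay close to the WT arrays. H2ac21 had a difference of 0.024 (interval -0.32 to 0.37, limma adjusted p = 0.989), and the mean over its 2 probe sets gave -0.049. H2ac12, H2ac15 and the pseudogene were dim, between 2.44 and 4.53.

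Among the linker histone genes, the differences of the clustered H1f2 and H1f5 rested on 1 array. H1f2, which encodes the clustered H1.2, read 6.92 and 7.73 on the CD4-Vα14Tg arrays and 6.92 and 6.83 on the WT arrays. CD4-Vα14Tg replicate 1 thus lay level with WT, and the difference of 0.45 ± 0.24 (SE; limma adjusted p = 0.593) became 0.041 without CD4-Vα14Tg replicate 2. H1f5, which encodes H1.5, had the same shape, at 6.25 and 6.96 against 6.28 and 6.29 (difference 0.32, limma adjusted p = 0.692), and was at -0.032 without that array. H1f10, the replacement histone H1.10, read 5.48 and 5.43 against 5.15 and 5.49 (difference 0.13, limma adjusted p = 0.855). H1f8, the oocyte H1, read 5.18 and 5.32 against 5.34 and 5.16 (difference -0.0035, interval -0.31 to 0.30, limma adjusted p = 0.999). The 4 dim H1 members, H1f1, H1f3 and the germ cell genes H1f6 and H1f7, stayed between 3.67 and 4.65.

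H4 genes went both ways. H4c1 read 5.18 and 5.31 on the CD4-Vα14Tg arrays against 5.62 and 6.08 on the WT arrays, and was the only tested member with both CD4-Vα14Tg arrays below both WT arrays. Its log2 difference was -0.60 ± 0.17 (SE), 1.52-fold lower (interval -1.004 to -0.21, limma adjusted p = 0.171, and 0.0627 to 0.555 when 1 array was left out). H4c12 read 10.93 and 11.34 against 10.96 and 11.11, which overlap (difference 0.10, interval -0.28 to 0.48, limma adjusted p = 0.924). H4c9 read 6.25 and 6.72 against 6.16 and 6.47 (difference 0.17, limma adjusted p = 0.860). Both were negative without CD4-Vα14Tg replicate 2, at -0.101 and -0.067. The dim H4c14 read 3.57 and 3.63 against 4.22 and 4.93, a difference of -0.98 that was not tested because 1 array alone reached the line.

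**Figure D2:**
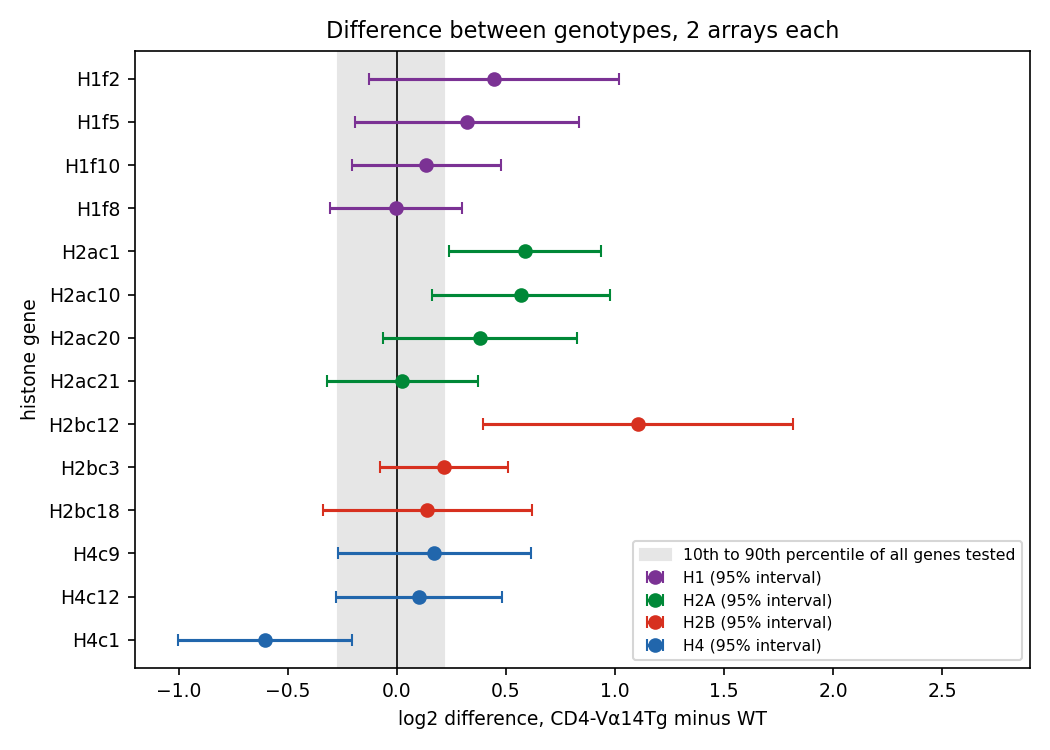
Log2 difference, CD4-Vα14Tg minus WT (x axis), of the 14 tested histone genes (y axis), with 95% intervals from limma and the 10th to 90th percentile of all genes tested (-0.27 to 0.22) in grey. The intervals of H2ac1, H2ac10, H2bc12 and H4c1 leave out 0, and no member passed after adjustment.

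The sequences before the start sites of those 4 members, chosen after their values were seen, are shown because histone classes are known to carry promoter motifs of their own. RefSeq windows of 250 bases upstream of the annotated start (build GRCm38.p6) were found by Entrez number for 27 of the 30 members. They were searched on both strands for CCAAT (read as ATTGG from the other strand), the octamer of H2B promoters, ATTTGCAT (as ATGCAAAT), the TATA motif TATAAA (as TTTATA) and, for the H1 box, AAACACA (as TGTGTTT), and matches stand in capitals. The windows are chr13:22035571-22035820 (plus strand) for H2bc12, chr13:23533625-23533874 (plus strand) for H2ac10, chr13:23934187-23934436 (plus strand) for H2ac1 and chr13:23761250-23761499 (minus strand) for H4c1.
H2bc12: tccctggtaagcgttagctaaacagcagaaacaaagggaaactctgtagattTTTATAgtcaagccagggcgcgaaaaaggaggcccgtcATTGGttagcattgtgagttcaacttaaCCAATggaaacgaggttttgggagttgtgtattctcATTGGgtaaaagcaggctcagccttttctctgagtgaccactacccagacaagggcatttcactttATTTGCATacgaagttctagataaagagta
H2ac10: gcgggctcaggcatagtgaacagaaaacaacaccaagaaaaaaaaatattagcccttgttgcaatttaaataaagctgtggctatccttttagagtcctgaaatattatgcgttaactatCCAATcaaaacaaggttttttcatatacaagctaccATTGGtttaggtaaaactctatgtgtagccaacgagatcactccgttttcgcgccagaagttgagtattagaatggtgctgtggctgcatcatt
H2ac1: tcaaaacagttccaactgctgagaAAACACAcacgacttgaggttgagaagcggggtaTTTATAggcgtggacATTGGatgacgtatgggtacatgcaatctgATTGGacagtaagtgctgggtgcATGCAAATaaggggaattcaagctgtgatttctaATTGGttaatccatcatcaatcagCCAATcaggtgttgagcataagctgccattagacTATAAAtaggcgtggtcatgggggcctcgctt
H4c1: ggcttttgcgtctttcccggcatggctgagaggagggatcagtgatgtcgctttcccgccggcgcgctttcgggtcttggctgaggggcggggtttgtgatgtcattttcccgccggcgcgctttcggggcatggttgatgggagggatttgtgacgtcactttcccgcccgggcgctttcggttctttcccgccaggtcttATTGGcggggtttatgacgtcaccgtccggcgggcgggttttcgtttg

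CCAAT was found in all 6 H2A and all 7 H2B windows, in 6 of 8 H1 windows and in 1 of 6 H4 windows (H4c1), against 33.8% of all 32851 windows. The octamer was found in 5 of 7 H2B, 3 of 6 H2A, 0 of 8 H1 and 0 of 6 H4 windows, against 1.6% of all windows. In H2bc12 it began 30 bases before the start and in H2ac1 at -124, and the H2ac10 and H4c1 windows had no octamer. TATAAA was in 13 of 27 member windows (12.4% of all) and AAACACA in 7 of 27 (6.25% of all), 4 of them H1. The H2bc12 window shared 177 bases with that of H2ac12, its neighbour on the other strand, and H2ac12 read 2.44 to 2.65 on the 4 arrays. The H2ac1 window shared 220 bases with that of H2bc1, which was dim as well. All CCAAT and octamer matches of these neighbours lay at the same bases in both windows of a pair. Each was therefore counted for an H2A and for an H2B window. A match gives letters only, and no binding was measured.

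Replicate arrays lay farther apart for the histone genes than for the median gene, a description with no test. Replicate 1 minus replicate 2 had a median of -0.41 over the 14 members in CD4-Vα14Tg and -0.16 in WT, beside -0.008 and -0.030 over all genes tested. The array numbered 2 was the higher for 12 of 14 members in CD4-Vα14Tg (51.1% of all genes) and for 10 of 14 in WT (55.6% of all genes), and in both genotypes for 9 members (32.1% of all genes). The median size of the gap was 0.41 in CD4-Vα14Tg and 0.25 in WT, against 0.14 and 0.14 over all genes. The gap in CD4-Vα14Tg was 0.96 for H2bc12, 0.81 for H1f2 and 0.71 for H1f5, while in WT it was 0.085 for H1f2 and 0.007 for H1f5. The difference between genotypes was larger than both replicate gaps for 5 of 14 members, against 27.9% of all genes.

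**Figure D3:**
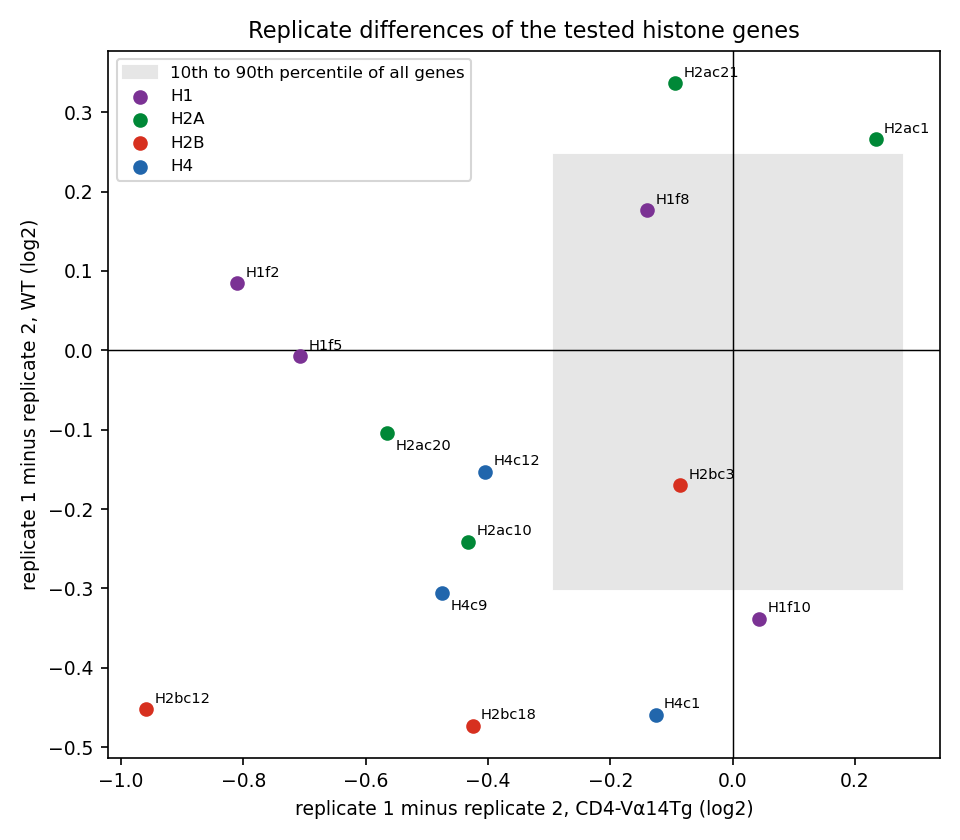
Replicate 1 minus replicate 2 in CD4-Vα14Tg (x axis) and in WT (y axis), on the log2 scale, for the 14 tested histone genes coloured by class; the grey box spans the 10th to 90th percentile of all genes tested on each axis. Most members lie left of 0, where the second CD4-Vα14Tg array was the higher, with H2bc12 farthest left at -0.96.

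Probe sets listed for several histone genes cover what the single-symbol rule leaves out, and are named here by family alone. There were 45, of which 3 repeated the values of another on all 4 arrays, leaving 42 distinct, and 26 of these passed the same filter. In a limma fit over 15429 probe sets with any symbol, of which 2.61% passed, 0 of the 26 did, with 7 at an unadjusted p under 0.05 (12.1% of all probe sets). They list overlapping sets of genes, also across probe sets of one family, so they do not count as independent. All 6 H2A and all 6 H2B probe sets had positive differences, with medians of 0.29 and 0.51 beside -0.023 over all probe sets of that fit. Both CD4-Vα14Tg arrays lay above both WT arrays for 5 of 6 H2B and 2 of 6 H2A probe sets (15.6% of all probe sets). The largest difference was that of a probe set listed for 10 H2A genes, which read 9.32 and 9.81 on the CD4-Vα14Tg arrays against 8.33 and 8.76 on the WT arrays. This was a difference of 1.02, or 2.03-fold (interval 0.53 to 1.51, limma adjusted p = 0.0570). It passed with limma's trend and robust options (limma adjusted p = 0.0433), the 1 probe set of the 26 to do so. Leaving out CD4-Vα14Tg replicate 1 gave this probe set a difference of 1.27, and leaving out CD4-Vα14Tg replicate 2 gave 0.78. Another H2A probe set listed for 10 genes, with a difference of 0.53 (limma adjusted p = 0.605), depended on 1 array. Its difference was 1.07 without CD4-Vα14Tg replicate 1 and -0.003 without CD4-Vα14Tg replicate 2. An H2B probe set listed for 4 genes read 11.52 and 11.82 against 10.98 and 11.20 (difference 0.58, limma adjusted p = 0.132).

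H3 and H4 probe sets did not all share that direction. Of 4 tested H3 probe sets, 3 had negative differences (median -0.10), and 2 lay below WT on both CD4-Vα14Tg arrays (23.8% of all probe sets). A probe set listed for 8 H3 genes read 6.12 and 6.48 against 6.78 and 7.34 (difference -0.76, interval -1.26 to -0.26, limma adjusted p = 0.157), whereas another listed for 8 H3 genes had 0.22 (limma adjusted p = 0.795). The 2 tested H4 probe sets had -0.65 and 0.12 (limma adjusted p = 0.715 and 0.890). The probe set at -0.65 read 3.93 and 4.69 against 4.18 and 5.74, near the lower line for testing. Without WT replicate 2 its difference was 0.13. The 7 probe sets of replacement histone H3.3, listed with gene models of similar sequence, had a median of 0.056 and ranged from -0.45 to 0.21. The probe set at -0.45 read 6.50 and 6.42 against 6.79 and 7.03 (interval -0.76 to -0.14, limma adjusted p = 0.188). Another probe set listed for the same genes had 0.046 (limma adjusted p = 0.965). The difference between families was not tested.

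**Figure D4:**
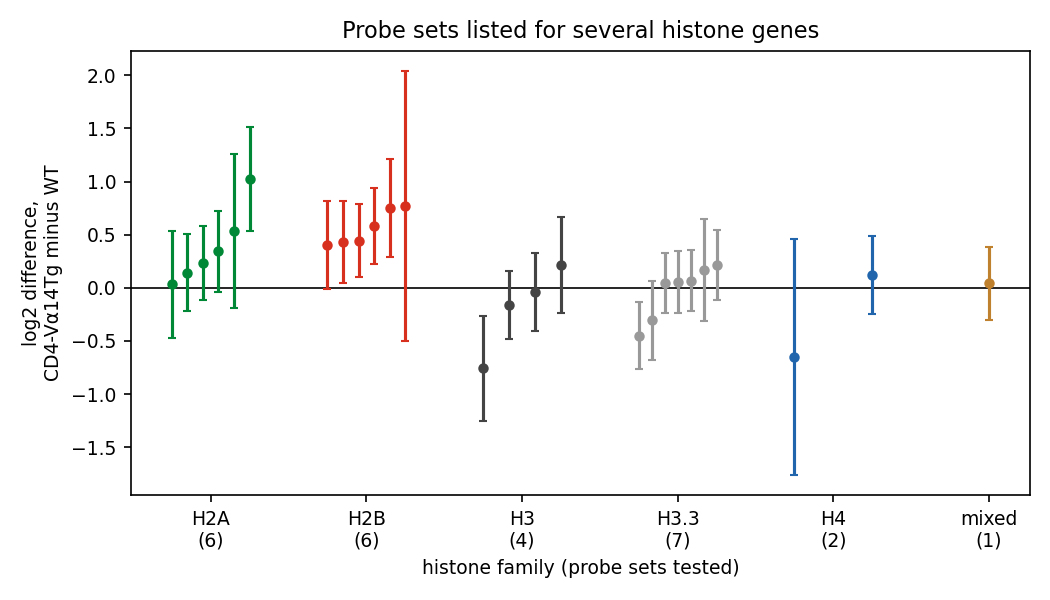
Log2 difference, CD4-Vα14Tg minus WT (y axis), with 95% intervals from limma, for the 26 distinct tested probe sets listed for several histone genes, by family (x axis, number of probe sets in brackets; mixed lists genes of H1 and H2B). All H2A and H2B points lie above 0, and 3 of 4 H3 points lie below.

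Replacement variants whose current symbols fall outside the prefix rule were read as well. H2az1, which encodes H2A.Z, read 7.90 and 7.40 against 7.28 and 7.21 (difference 0.41, limma adjusted p = 0.434). H2ax encodes H2A.X, the variant phosphorylated at DNA breaks. It read 8.91 and 9.80 against 8.82 and 9.41, higher on the array numbered 2 in both genotypes, with a difference of 0.24 (interval -0.48 to 0.95, limma adjusted p = 0.893). H2az2 and Macroh2a1 had differences of 0.034 (interval -0.26 to 0.32) and -0.092 (interval -0.36 to 0.18). Of 6 such variants tested, 0 passed in limma (1.95% of all genes) and 0 had an unadjusted p under 0.05 (11.7% of all genes).

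Genes that process histone mRNA and load histones had differences near that of all genes. Of 23 tested histone transcript processing genes, 0 passed in limma (1.95% of all genes) and 0 had an unadjusted p under 0.05 (11.7% of all genes). Their median log2 difference was -0.055, and Slbp, which encodes the stem-loop binding protein, had -0.25 (limma adjusted p = 0.551). Of 25 histone chaperone and loading genes, 0 passed and 0 had an unadjusted p under 0.05, beside the same shares of all genes, with a median of -0.024. Among these, Asf1b, a chaperone of newly made H3 and H4, had 0.28 and Ubn2 of the HIRA complex had -0.26 (limma adjusted p = 0.680 and 0.556).

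DNA replication genes had 29 of 41 positive differences (44.0% of all genes) and a median of 0.092. Limma called 0 of the 41 (1.95% of all genes), with 8 of 41 at an unadjusted p under 0.05 (11.7% of all genes). E2f2, a transcription factor of S phase entry, and Pole2, a DNA polymerase ε subunit, had 0.55 and 0.60 (limma adjusted p = 0.0906 and 0.177). Of 34 mitosis and proliferation genes, 32 had positive differences, with a median of 0.37, and 8 had an unadjusted p under 0.05 (11.7% of all genes). Cks2, which encodes a subunit of cyclin-dependent kinases, fell by 0.72 on the log2 scale (limma adjusted p = 0.0379). Leaving out any single array ended that call. Kif11, a spindle motor, had 0.91 (limma adjusted p = 0.210), and between 0.49 and 1.32 when 1 array was left out. This list also differed between replicates, with medians of replicate 1 minus replicate 2 of -0.43 in CD4-Vα14Tg and -0.38 in WT. Its summed linear level was 5524 and 7069 on the CD4-Vα14Tg arrays and 4482 and 5653 on the WT arrays, so that CD4-Vα14Tg replicate 2 was highest there, as it was for the histone members. The part of proliferating cells in the histone values was not tested.

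**Figure D5:**
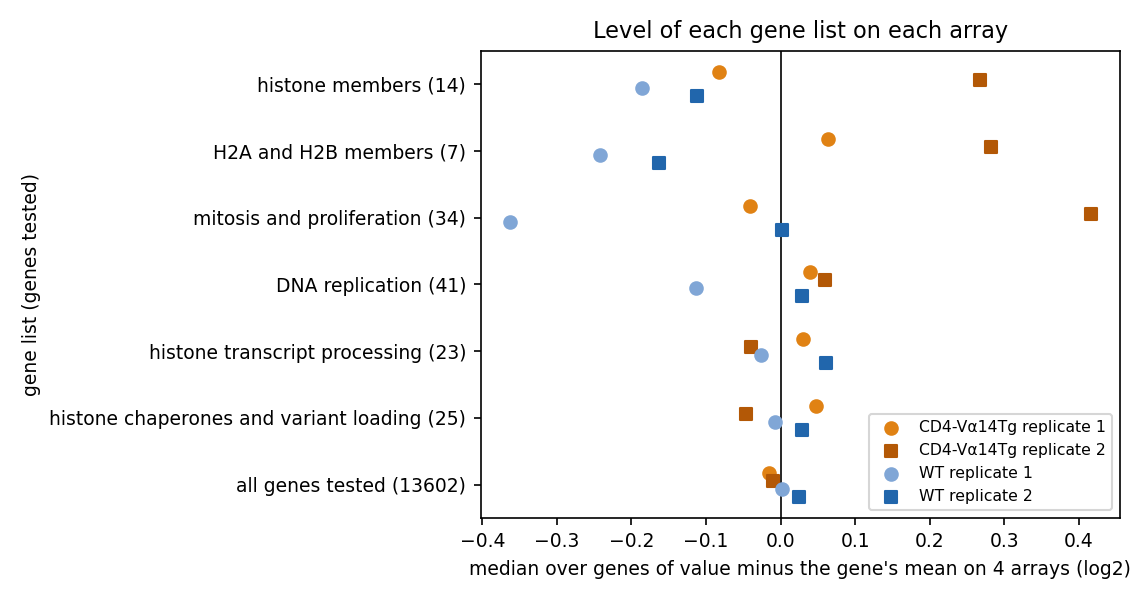
Median over the genes of each list of the log2 value minus the gene's own mean on the 4 arrays (x axis), by list (y axis, genes tested in brackets), 1 point per array. CD4-Vα14Tg replicate 2 stands highest for the histone members (0.27) and for mitosis and proliferation (0.42), and WT replicate 1 stands lowest for both (-0.19 and -0.36).

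T cell genes were present on all arrays: Cd3e read 11.95 to 12.45 and Zbtb16, the PLZF gene of the iNKT lineage, 11.08 to 11.39. Klrb1c, Tbx21 and Il2rb, genes of the NKT1 subset, fell by 1.45, 1.39 and 0.80 on the log2 scale (limma adjusted p = 0.00326, 0.00819 and 0.0427). The Il2rb call did not hold when any single array was left out. Of the markers of other cells, 3 of 7 for double positive thymocytes, 2 of 7 for B and plasma cells, 2 of 11 for myeloid cells and 1 of 3 for erythroid cells reached the line for testing. Itgam, an integrin of myeloid and NK cells, rose by 0.67 (5.42 and 5.44 against 4.84 and 4.69, limma adjusted p = 0.0438), and this too did not hold with any 3 of the 4 arrays. Elane, the other tested myeloid marker, had 0.047. Of the 9 dim myeloid markers, 3 had positive differences, with a median of -0.115, and Itgax had -0.42. Of the tested markers, Cd1d1 of the double positive list read 6.05 and 5.72 against 5.37 and 5.33 (difference 0.54, limma adjusted p = 0.150), and Cd79b of the B cell list read 5.50 and 5.43 against 5.05 and 4.94 (difference 0.48, limma adjusted p = 0.124). Both lay above WT on both CD4-Vα14Tg arrays and did not pass. The other tested double positive markers, Ptcra and Cd8b1, had differences of 0.12 and -0.085. Sdc1, the other tested marker of the B cell list, had -0.17. Lyz2, Csf1r, Cd8a, Rag2 and Ms4a1 were all below the line. The summed linear level of the double positive list was 229 and 255 against 216 and 216. For the B and plasma cell list it was 166 and 176 against 182 and 148. The myeloid list had 235 and 222 against 236 and 210, and the erythroid list 77 and 78 against 79 and 76. The sums of the B and plasma, myeloid and erythroid lists overlapped between genotypes. The part of other cells in the histone values was not tested.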

How the data were processed

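Gene expression was read on 4 whole-transcript Affymetrix arrays, 2 of CD4-Vα14Tg and 2 of WT iNKT cells, grouped by the genotype label. Values are the deposited log2 values, made with RMA and Affymetrix Power Tools per the submitters' processing notes; not given in the sources used here are versions, options and a build. Arrays had medians from 5.04 to 5.07 and correlated at 0.977 to 0.990 over tested genes. RMA gives arrays like distributions, so a change of total RNA cannot be seen, and 2 arrays per group limit the precision.

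Of 41345 probe sets, 23521 had 1 platform symbol, 1814 several and 16010 none there. The probe set with the highest mean was kept per gene. All 30 members and 21994 of 22180 named genes were found by Entrez number in RefSeq's gene table (GRCm38.p6), used for names. Genes at or above the 40th percentile on at least 2 arrays were fitted with limma 3.58.1 in R 4.3.3 (lmFit, eBayes, two-sided, Benjamini-Hochberg over 13602 genes, threshold 0.05). Each fold is 2 raised to the size of the log2 difference. On simulated data for this comparison, 83 of 100 genes changed by 1 and 100 of 100 changed by 2 (log2) were recovered among 13602. The simulated spreads were drawn from the fit over all genes. The tested histone genes had wider replicate gaps, so these counts do not measure recovery for them.

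Members and lists were chosen with earlier results of these data known. The genes named are all tested members and, from each list, those past the threshold and up to 4 by absolute moderated t, with defining cell markers and the replacement variants. The fit of shared probe sets, and the list of variants outside the prefix rule, were added after seeing the data. Alternatives changed the filter, probe set, variance model, scaling, replicate block and arrays. Tables were made with Python 3.11.15 and plots with matplotlib 3.10.9.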

Additional observations from a re-analysis of the deposited data

How the results depend on the processing

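No histone gene passed under any of the filters, scalings, probe set or variance choices tried. With the replicate block, 4 histone genes (H2bc12, H2ac1, H2ac10 and H4c1), 5 shared probe sets, 18 genes of the related lists and 674 of all genes passed. The share of all probe sets that passed with the block was not computed. The replicate numbers are shared only by name: replicate 1 minus replicate 2 correlated at 0.262 between the genotypes over all genes, and with 2 numbers this does not settle a pairing. With no filter, 12 of the 30 histone genes did not overlap between groups, and 3 genes of the related lists passed. The median replicate difference of the histone genes in CD4-Vα14Tg was then -0.133. No share over all genes was computed for overlap with no filter or with 1 array left out. The histone counts of overlap in those settings thus have no background. When 1 array was left out, in a fit that assumes the lone array varies like the other group, the count of genes called ran from 166 to 221, of histone genes called from 0 to 1, of histone genes not overlapping from 8 to 11 and of related genes called from 2 to 4, and the histone median from 0.009 to 0.38. Of 150 values of single members under these alternatives, 134 kept their sign and side of the threshold, 11 changed sign and 5 newly passed. The sign changed for H1f5 (-0.032 to 0.675 over arrays left out), H1f10 (-0.034 to 0.304), H1f8 (-0.092 to 0.085), H2ac21 (-0.144 to 0.193, and -0.049 for the mean of its probe sets), H2bc18 (-0.096 to 0.376), H4c9 (-0.067 to 0.408) and H4c12 (-0.101 to 0.304). Outside the members it changed for H2ax (-0.207 to 0.679), H2az2 (-0.046 to 0.113), Cd8b1 (-0.227 to 0.058), Ptcra (-0.145 to 0.382), Elane (-0.029 to 0.123) and Epor (-0.096 to 0.018). The cause was not tested. Dim probe sets compress differences, and 16 of 30 members were too dim to test.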
